A study of Mus musculus with 33 samples.

Results

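Ribosome biogenesis factors are the nucleolar proteins that transcribe, cut, modify and fold ribosomal RNA and load it with ribosomal proteins. Their mRNAs were followed here in regrowing mouse liver. The 46 genes listed were matched to the array by symbol. A probe set counted only where the platform annotation gave it a single gene, and where a gene had several probe sets the one with the highest mean over all arrays was taken. This gave 45 of 46 genes, out of 18193 genes on the array, and all 45 were among the 13642 genes bright enough to test. Mrto4, a large-subunit assembly factor, has no probe set annotated to it alone, so no value is given for it.

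Remnant livers of mice were sampled after surgical removal of 70% of the organ. The times were 0 days (d), then 0.25, 0.5 and 0.75 d in the first day, then 1, 1.5, 2, 3 and 4 d, and at the end 7 and 14 d, with 3 biological replicates at each time and 33 arrays in all. Strain, age, sex and genotype are not in the labels used here, and every group, 0 d included, is labelled as a hepatectomy group, with no sham-operated group among them. Total RNA of whole liver was hybridised to Affymetrix mouse arrays, and levels are the authors' log2 signals after robust multi-array averaging (RMA), so a difference of 1 is a 2-fold change in signal. One description in the labels names fat as the origin, whereas tissue and source give liver. The hepatocyte gene Alb lay between 14.6 and 14.8 on all 33 arrays, and the adipocyte gene Adipoq had a median of 3.11 with a range of 2.76 to 7.07.

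As background, ribosome production starts in the nucleolus, where RNA polymerase I copies the rRNA genes into a long precursor. Small nucleolar ribonucleoproteins (snoRNPs) then guide its chemical modification, methylation by the box C/D class and pseudouridylation by the box H/ACA class. A large assembly called the small subunit (SSU) processome cuts and folds the precursor for the 40S subunit, other factors build the 60S subunit, and late pre-40S factors accompany the small subunit into the cytoplasm. Liver cells that leave the resting state and grow before they divide need more ribosomes, and genes of this pathway are known targets of the transcription factor Myc.

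Sequence upstream of 41 of the 46 genes was found in RefSeq promoter entries (mouse build GRCm38.p6), each covering the 250 bases before the gene start. Fbl, Npm1, Bop1, Rrp12 and Rrs1 had no entry there. The E-box CACGTG, a palindrome that Myc and related proteins bind, stood in 3 of the 41 windows, those of Rrn3, Imp4 and Nop2. That is 7.32% of the members, against 9.63% of the 10959 tested genes with an entry and 6.86% of all 27025 entries. The letters CCGGAA, the core to which ETS-family factors bind, stood on one strand or the other in 14 of 41 windows (34.1%), against 22.9% of tested genes and 13.6% of all entries. This motif was chosen after the sequences had been seen, so the share is a description only. The 3 E-box genes are shown first, with CACGTG in capitals. Nop58, Ltv1, Nhp2 and Pno1, whose time courses are described most fully below, follow with CCGGAA or its complement TTCCGG in capitals. Nop2 carries both motifs, and Pno1 neither.
Rrn3 (chr16:13780449-13780539, plus strand): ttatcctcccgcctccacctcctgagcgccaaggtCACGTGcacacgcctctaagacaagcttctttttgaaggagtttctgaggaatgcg
Rrn3 (chr16:13780601-13780698, plus strand): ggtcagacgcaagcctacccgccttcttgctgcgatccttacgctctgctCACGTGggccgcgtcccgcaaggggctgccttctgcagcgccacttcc
Imp4 (chr1:34439658-34439763, plus strand): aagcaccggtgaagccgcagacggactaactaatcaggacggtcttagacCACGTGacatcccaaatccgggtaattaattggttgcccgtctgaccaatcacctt
Nop2 (chr6:125131773-125131878, plus strand): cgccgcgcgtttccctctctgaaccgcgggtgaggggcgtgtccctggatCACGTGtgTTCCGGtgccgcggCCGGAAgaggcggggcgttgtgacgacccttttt
Nop58 (chr1:59684906-59685005, plus strand): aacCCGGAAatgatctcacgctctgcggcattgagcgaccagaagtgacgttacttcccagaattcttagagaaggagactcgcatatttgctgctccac
Ltv1 (chr10:13193138-13193237, minus strand): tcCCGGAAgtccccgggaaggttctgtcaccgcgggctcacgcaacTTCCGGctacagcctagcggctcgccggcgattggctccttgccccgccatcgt
Nhp2 (chr11:51619673-51619772, plus strand): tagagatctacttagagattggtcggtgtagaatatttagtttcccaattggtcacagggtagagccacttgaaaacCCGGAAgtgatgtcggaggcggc
Pno1 (chr11:17211590-17211689, minus strand): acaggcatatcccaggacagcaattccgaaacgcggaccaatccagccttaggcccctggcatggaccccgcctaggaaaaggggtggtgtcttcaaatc
The sequences read 5′ to 3′ on the strand of the gene. A match is a description of the letters, not evidence of binding, and a missing match says only that these letters are not in the window.

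Several facts of the series bear on all that follows. The samples of 0.25, 0.5, 0.75 and 1.5 d were registered in a later run of numbers than those of the other 7 times. Whether they were processed apart is not stated, so for these 4 times against 0 d the registration run and the time cannot be told apart. At 1.5 d, the time of this run that has the other run on both sides, no member passed against the mean of 1 and 2 d (limma, 0 of 45 in either direction, against a background of 0.00733% of all genes higher and 0.0147% lower). There 1 member was lower at an unadjusted p under 0.05, and the members' differences ran between -0.15 and 0.20. Cell composition also moved. Of 5 tested neutrophil markers 4 were higher at 0.25 d and 2 at 0.5 d, with summed log2 signals of 8.65 to 9.18 and 8.41 to 9.67, against 7.49 to 7.68 at 0 d. Of 7 Kupffer cell markers 4 were lower and 1 higher at 0.5 d (10.39 to 11.28, against 11.44 to 11.97 at 0 d). At 3 and 4 d, when the members fell back, 4 and 2 Kupffer cell markers were higher than at 0 d, with sums of 12.56 to 12.92 and 12.48 to 13.31, and 2 neutrophil markers were higher at 3 d (8.62 to 9.02). Of 6 stellate cell markers 2 were lower at 0.25 and at 0.5 d, and of 3 tested adipocyte markers 1 was higher at those times. Of 4 cholangiocyte markers 2 were higher at 0.25 d and 1 at 0.5 d, of 6 endothelial markers 1 was higher and 2 were lower at both times, of 2 tested erythroid markers 1 was lower from 0.25 to 3 d, and of 4 tested lymphocyte markers 0 were called at either early time. The 6 hepatocyte markers together stayed between 16.70 and 16.88 at all times, with 1 higher and 1 lower at 0.25 d and 2 lower at 0.5 d. The part of these shifts in the members' changes was not tested, and in whole liver a change in the share of a cell type cannot be told apart from a change of RNA per cell.

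Most of these mRNAs had risen by 0.5 d after surgery, a part of them were still higher at 2 d, and none was called higher at 4 d. At 0.25 d 22 of the 45 members were higher than at 0 d and 2 were lower, against a background of 17.2% of all genes higher and 28.8% lower. At 0.5 d 29 members (64.4%) were higher and 2 lower, against 15.8% and 19.4% of all genes. The median member was 0.31 above 0 d at 0.25 d and 0.37 above it at 0.5 d on the log2 scale, while the median over all genes tested was -0.03 and 0. Of all genes called at 0.25 d 37.4% were higher, and 49.4% after quantile normalization (3075 higher and 3150 lower). A call is an adjusted p under 0.05 in limma's moderated test, with Benjamini-Hochberg adjustment over all 13642 genes. Without 0 d replicate 3 the count at 0.5 d was 19, and with only the arrays of the times compared in the fit 14 members were higher at 0.25 d and 17 at 0.5 d. A sign of RNA quality moved as well, since the actin 3′ signal exceeded the 5′ signal by 0.46 to 0.62 at 0.5 d and by 0.65 to 0.80 at 0.25 d, against 0.74 to 0.94 at 0 d, and at 1 d by 0.49 to 0.56. Its part in the members' rise was not tested. Changes were mostly modest in size, with 5 members at least 2-fold higher at 0.25 d and 3 at 0.5 d.

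Fewer members were called from 0.75 d on. At 0.75 d 13 members were higher and 1 lower (background 9.84% and 12.7%), and at 1 d 9 were higher and 0 lower (8.16% and 9.55%), with 2 members lower at 1 d at an unadjusted p under 0.05. At 1.5 d 14 were higher and 0 lower (8.33% and 11.7%), and at 2 d 9 were higher and 1 lower (11% and 11.6%). The share of members that were higher was then 28.9%, 20%, 31.1% and 20% at 0.75, 1, 1.5 and 2 d, in each case above the background. By the chosen probe sets only Nhp2 was still higher at 3 d, and Polr1b and Nop10 were lower. The 2.22% of members higher lay below the background of 10.2% of all genes (10.9% lower). These later counts rest on few arrays. The count at 0.75 d was 5 without 0 d replicate 2 or 0.75 d replicate 3, 7 without 0 d replicate 3 and 8 without 0.75 d replicate 1. At 1 d it was 5 without 0 d replicate 2, 1 d replicate 2 or 1 d replicate 3, and 14 without 0 d replicate 1. At 1.5 d it was 3 without 0 d replicate 2, 9 without 0 d replicate 3, and 8 without 1.5 d replicate 2 or 3. At 2 d it was 5 without 0 d replicate 2 or 2 d replicate 2. The single higher member at 3 d became 2 or 3 without 0 d replicate 1, 0.25 d replicate 1 or 3, 0.5 d replicate 3 or 14 d replicate 3. Of the 3 arrays at 0 d, replicate 1 had 39 of the 45 members above the 0 d mean, with a median of 0.15, and the other 2 had medians of -0.11 and -0.07. The 18S rRNA signals of replicates 1, 2 and 3 at 0 d were 11.28, 9.53 and 10.62. At 14 d replicate 2, where the median member was -0.25 from the 0 d mean, had the lowest 18S signal of the series, 8.91, and the 4 d arrays had 9.28 to 9.79. The part of this signal in the members' values was not tested.

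From 4 d on hardly any member differed from 0 d by the test. At 4 d 0 members were higher and 1 lower, against 1.88% and 0.975% of all genes. No member was called at 7 d (0.125% of all genes higher and 0.0586% lower, which is 17 and 8 genes, against 14 and 2 after quantile normalization) or at 14 d (0.0147% and 0%). At an unadjusted p under 0.05, 0 members were higher and 6 lower at 7 d, and 0 higher and 3 lower at 14 d. These counts have no background, since all genes were not counted at that threshold. At 7 d 7 of the 45 members lay above their 0 d mean, against 44.5% of all genes, and at 14 d 8 did, against 40.3%. All members share the same 0 d arrays, so these counts are not independent. The single arrays also differed. On replicates 1, 2 and 3 the members above the 0 d mean numbered 9, 21 and 9 at 7 d and 10, 3 and 27 at 14 d. The median member stood at -0.06 at 4 d and at -0.11 at 7 and at 14 d. Wdr12 had the largest of these late differences, -0.41 ± 0.11 at 7 d (adjusted p = 0.0997), which did not pass. Its other probe set differed by -0.09 at 7 d.

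**Figure D1:**
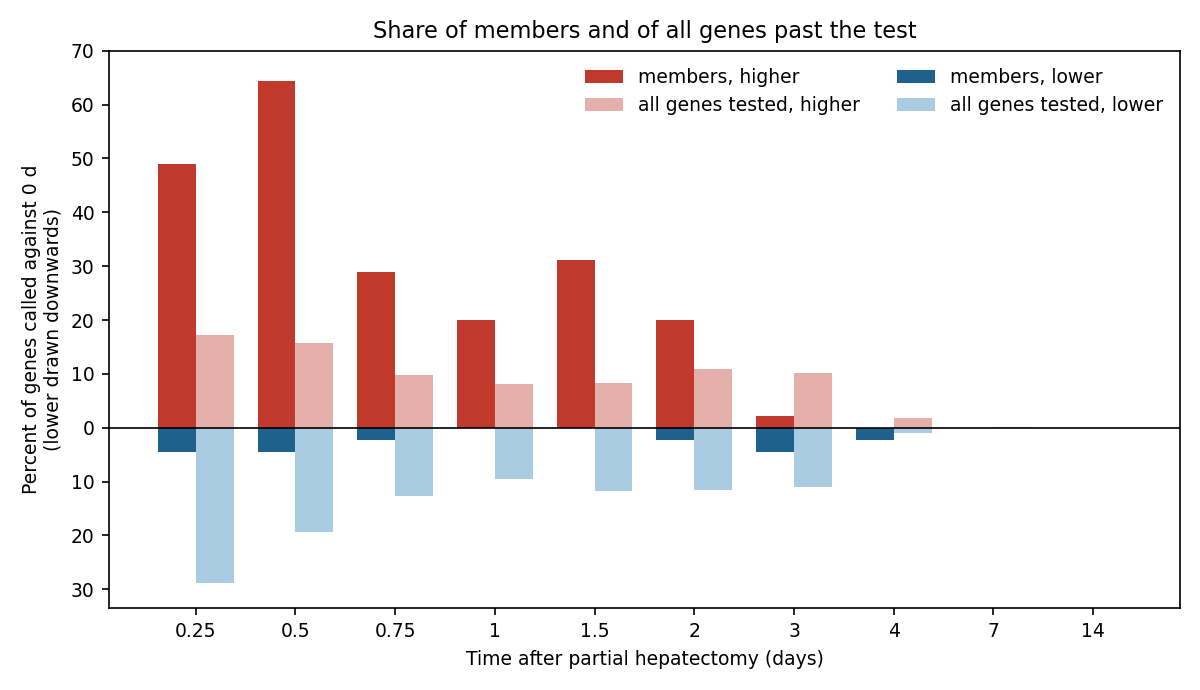
Share of the 45 members (dark bars) and of the 13642 genes tested (pale bars) that were called higher (red, upwards) or lower (blue, downwards) than at 0 d, in percent, at each later time in days. The members' share higher was 64.4% at 0.5 d, where 15.8% of all genes were higher, and it had dropped below the share of all genes by 3 d.

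The onset was early for nearly every member that rose. Of the 31 members higher than 0 d at some time, 22 first passed at 0.25 d and 8 at 0.5 d, and Nhp2 first passed at 1.5 d. The last time of passing was more spread, at 0.5 d for 14 members, at 0.75 d for 1, at 1 d for 2, at 1.5 d for 5, at 2 d for 8 and at 3 d for 1. In 24 of the 31 the calls formed an unbroken run, but 5 of these members were called at a single time, where no break was possible. The highest mean fell at 0.25 d for 12 of the 45 members and at 0.5 d for 20, while 6 had it at 2 d. By the moderated F-test over all 11 times 40 of the 45 members varied, against a background of 69.4% of all genes. Polr1b, Rrn3, Rrp9, Imp3 and Noc4l did not pass that test. By their chosen probe sets 10 members were called neither higher nor lower than 0 d at any time. They were Polr1a, Rrn3, Ubtf, Fbl, Rrp9, Wdr75, Noc4l, Rcl1, Wdr12 and Nop16. For Fbl, Noc4l, Wdr12 and Nop16 another probe set was called higher, as given below.

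**Figure D2:**
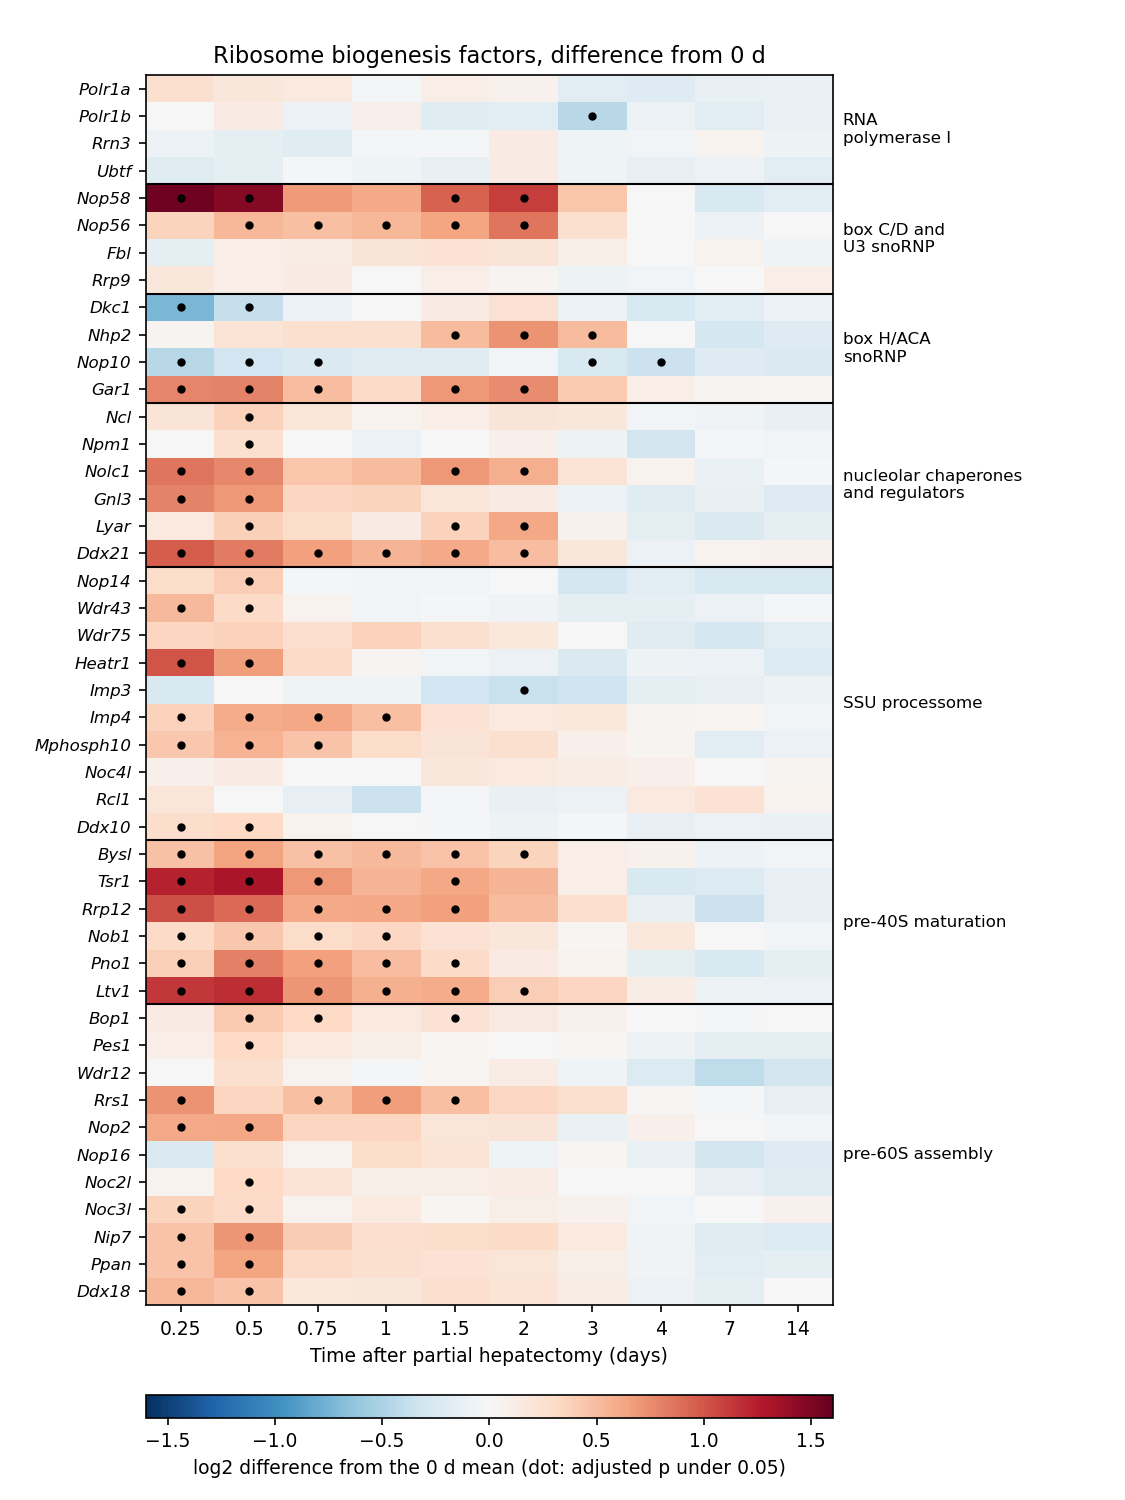
Log2 difference from the 0 d mean for each of the 45 members (rows, grouped by role) at the 10 later times (columns, days). Red is higher and blue lower than 0 d, and a dot marks an adjusted p under 0.05. Dots crowd at 0.25 and 0.5 d, all 6 pre-40S rows carry them through 0.75 d, and the RNA polymerase I rows hold a single one, Polr1b at 3 d.

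At the start of the pathway, the 4 RNA polymerase I genes among the members had few calls. None of the 4 was called higher at any time, and 0 were higher even at an unadjusted p under 0.05. Of all genes 17.2% were called higher at 0.25 d and 15.8% at 0.5 d, so 0 of 4 is near the background. The lack of higher calls does not hold for other RNA polymerase I genes. Of 11 outside the member list, chosen with earlier results of these data known, 5 were higher at 0.25 d (45.5%) and 6 at 0.5 d (54.5%). Polr1a encodes the largest subunit of the enzyme. It measured 7.27, 7.25 and 7.24 at 0.25 d, against 7.20, 6.87 and 6.94 at 0 d, a difference of 0.25 that did not pass (adjusted p = 0.139). All 3 arrays at 0.25 d lay above those at 0 d by a narrow margin. After quantile normalization the difference was 0.40 and passed (adjusted p = 0.0196), and with the mean of its probe sets it was 0.21 and passed (adjusted p = 0.0195). Ubtf, the factor that binds along the rRNA genes and keeps them open, measured 8.51, 8.44 and 8.60 at 0.25 d, against 8.64, 8.83 and 8.64 at 0 d. Its difference of -0.19 ± 0.08 did not pass (adjusted p = 0.064), although it passed with the mean of its probe sets (-0.26, adjusted p = 0.0348), without 0.25 d replicate 3 (adjusted p = 0.0472) or without 0.5 d replicate 3 (adjusted p = 0.0405). Rrn3, which carries polymerase I to the promoter, differed by -0.16 at 0.5 d and by 0.13 at 2 d, neither past the test. Polr1b, a catalytic subunit, was lower at 3 d, at 5.62, 5.71 and 5.84, against 6.18, 6.38 and 5.97 at 0 d (-0.45 ± 0.14, adjusted p = 0.0251), with no overlap between the groups.

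The pre-40S maturation factors were all called from the first time on. All 6 were higher at 0.25, 0.5 and 0.75 d, 5 were higher at 1 and at 1.5 d, and 2 at 2 d. Their median difference was 0.75, 0.85 and 0.62 at the first 3 of these times. Ltv1, a factor that leaves the pre-40S particle shortly before it becomes active, measured 9.25, 9.19 and 8.91 at 0.25 d and 8.94, 9.06 and 9.50 at 0.5 d, against 8.08, 7.85 and 8.04 at 0 d. Every array of both early times lay above every array at 0 d. The difference was 1.13 ± 0.13 at 0.25 d (adjusted p = 2.99e-07) and 1.18 ± 0.13, or 2.26-fold, at 0.5 d (adjusted p = 1.4e-07). It remained higher through 2 d, when it measured 8.27, 8.56 and 8.32 (0.39, adjusted p = 0.0317).

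Pno1 binds pre-18S rRNA and recruits Nob1, the nuclease that makes its last cut. It measured 9.29, 9.31 and 9.19 at 0.25 d and 9.65, 9.82 and 9.58 at 0.5 d, against 9.09, 8.69 and 8.88 at 0 d. Its difference from 0 d was 0.38 ± 0.10 at 0.25 d (adjusted p = 0.00335) and 0.80 ± 0.10 at 0.5 d (adjusted p = 8.74e-07), and the step between these times passed as well (0.42, adjusted p = 0.00406). Pno1 was last higher at 1.5 d, by 0.31. Nob1 itself was 0.31 higher at 0.25 d and 0.43 higher at 0.5 d, and was last higher at 1 d. Tsr1, a GTPase-like protein on late pre-40S particles, was 2.34-fold higher at 0.25 d and 2.47-fold at 0.5 d (1.30 ± 0.21, adjusted p = 3.21e-05). Rrp12, an export factor, was 1.03 higher at 0.25 d, and Bysl, which is needed for pre-40S formation, was 0.64 higher at 0.5 d and still 0.36 higher at 2 d. The other Bysl probe set passed from 0.25 to 1.5 d and not at 2 d (0.28).

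The SSU processome factors work earlier in the pathway, in the nucleolus. Of 10 members 5 were higher at 0.25 d, 6 at 0.5 d, 2 at 0.75 d and 1 at 1 d, and none from 1.5 d on. Heatr1, a large scaffold of the complex, measured 10.38, 9.53 and 9.10 at 0.25 d, against 8.83, 8.80 and 8.35 at 0 d. The 3 values at 0.25 d differed widely among themselves, yet all exceeded the 0 d arrays (1.01 ± 0.19, adjusted p = 0.000113). At 0.5 d Heatr1 was still 0.67 higher, and at 1 d it measured 8.71, 8.69 and 8.71, inside the 0 d range. Its other probe set was 0.40 higher at 0.25 d and did not pass at 0.5 d. The array with the value 10.38, 0.25 d replicate 1, also had the highest 18S rRNA signal of the series, 12.22, where the 0 d arrays had 9.53 to 11.28. Without that array 16 members were higher at 0.25 d.

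Imp4, which joins U3 RNA to the precursor together with Imp3 and Mphosph10, was higher at the first 4 times, through 1 d. It measured 8.32, 8.50 and 8.39 at 0.5 d and 8.39, 8.55 and 8.36 at 0.75 d, against 7.80, 7.97 and 7.67 at 0 d. The groups did not overlap at either time, with differences of 0.59 ± 0.10 and 0.62 ± 0.10 (adjusted p = 2.65e-05 and 2.8e-05). The other 2 Imp4 probe sets passed at 0.5 d, by 0.41 and 0.50, and not at 0.75 d (0.31 and 0.24) or 1 d (0.12 and 0.11). Mphosph10 was higher at the first 3 times, by 0.43, 0.55 and 0.45. Imp3, the partner of both, was at no time higher. It was lower at 2 d, at 9.15, 9.17 and 9.45, against 9.74, 9.64 and 9.46 at 0 d (-0.36 ± 0.12, adjusted p = 0.0386). That call, the only lower one at 2 d, disappeared when replicate 1 or 2 of either 2 d or 0 d was left out. Wdr43, part of a subcomplex that links transcription to processing, and the helicase Ddx10 were higher at 0.25 and 0.5 d, and Nop14 at 0.5 d. The other Wdr43 probe set passed at 0.25 d (0.67) and not at 0.5 d (0.38), and the other Ddx10 one at neither (0.08 and 0.15). The chosen probe sets of Wdr75, Noc4l and Rcl1 passed at no time.

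The pre-60S factors had most of their calls at the same early times. Of 11 members 6 were higher at 0.25 d, 8 at 0.5 d, 2 at 0.75 d, 1 at 1 d and 2 at 1.5 d. Rrs1, which helps to place the 5S RNP in the large subunit, measured 9.61, 9.64 and 9.42 at 0.25 d, against 8.94, 8.62 and 8.96 at 0 d (0.72 ± 0.14, adjusted p = 0.00025). It overlapped with 0 d at 0.5 d, where it measured 9.20, 9.38 and 8.94, and did not pass, while its other probe set passed there (0.53, adjusted p = 0.0132). It was called again at 0.75 d (0.48, adjusted p = 0.017) and at 1 d, at 9.50, 9.50 and 9.51 (0.67, adjusted p = 0.00173). Ddx18, an RNA helicase, measured 8.55, 8.16 and 7.95 at 0.25 d, against 7.82, 7.72 and 7.52 at 0 d, a difference of 0.53 ± 0.12 (adjusted p = 0.000658). All 3 lay above the 0 d arrays, and at 0.5 d the difference was 0.46. The other Ddx18 probe set did not pass at 0.25 d (0.33) and passed at 0.5 d (0.49). Nip7 and Ppan, both needed for maturation of the large subunit rRNAs, peaked at 0.5 d with differences of 0.71 and 0.63. The other Nip7 probe set passed at no time, with 0.22 at 0.5 d. The rRNA methyltransferase Nop2 was 0.60 and 0.62 higher at 0.25 and 0.5 d. Of the PeBoW complex, Bop1 was higher at 0.5 d by 0.42 and Pes1 by 0.32, and the difference of Wdr12, 0.26, did not pass (adjusted p = 0.0616). These differences were not tested against each other. The other probe sets of Bop1, Pes1 and Wdr12 gave 0.21, 0.49 and 0.21 at 0.5 d, none of which passed.

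**Figure D3:**
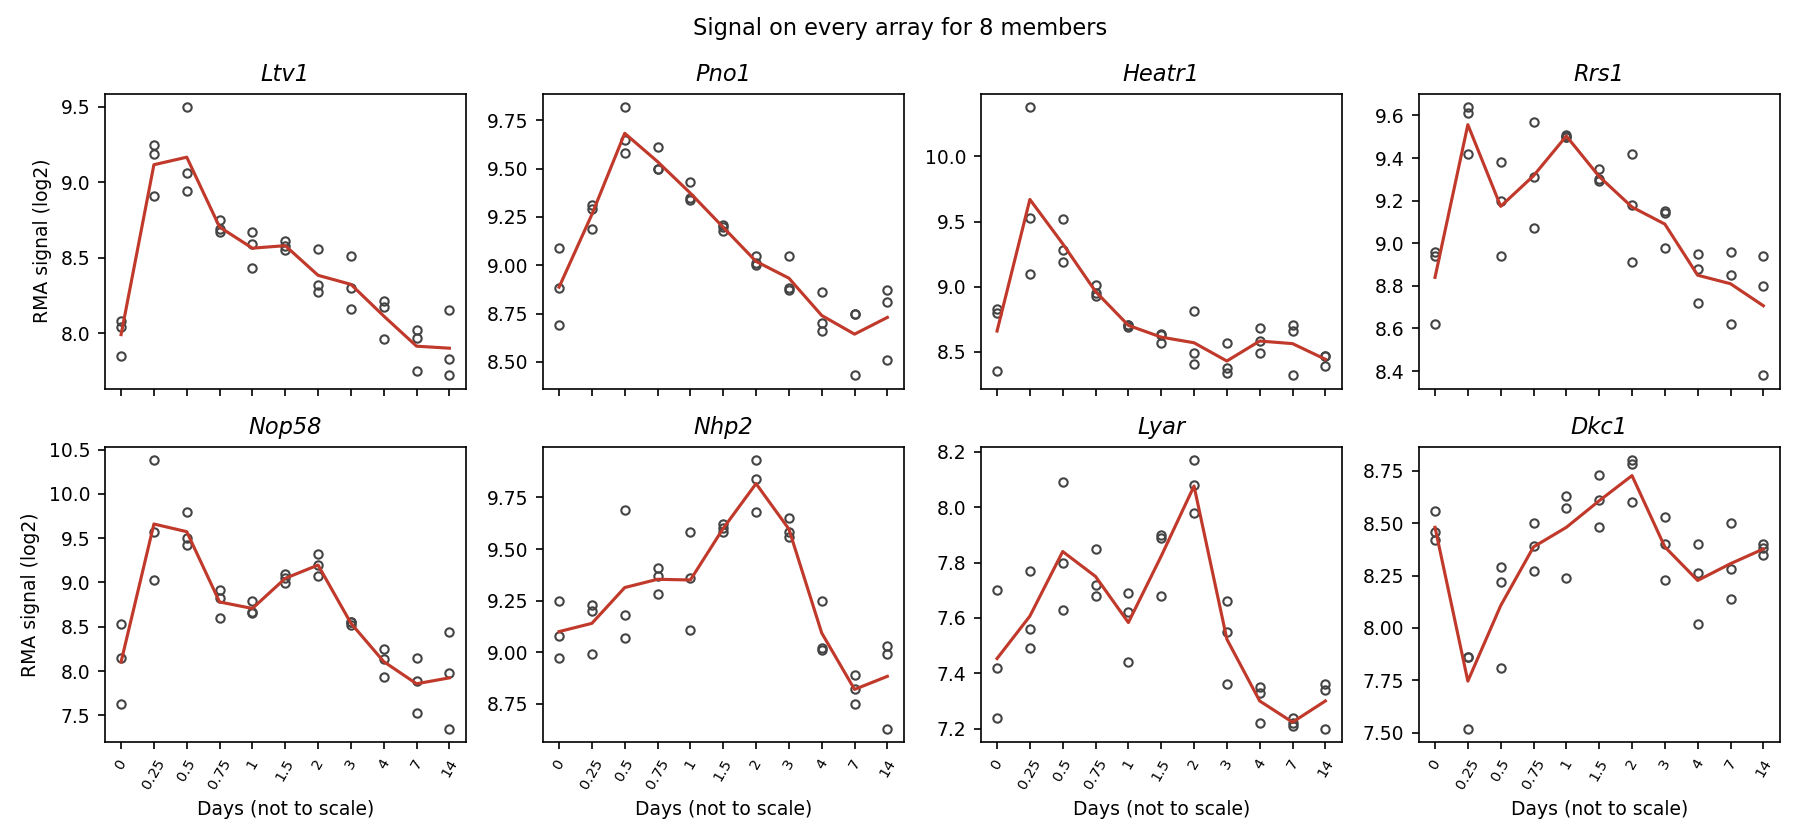
RMA log2 signal of 8 members on each of the 33 arrays (open circles) with the mean of each time (red line), against days after surgery on an unscaled axis. Heatr1 and Ltv1 are high at 0.25 and 0.5 d. Nop58 is high early and again at 2 d, Nhp2 and Lyar have their highest means at 2 d, and Dkc1 is lowest at 0.25 d.

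The snoRNP proteins had their highest means at different times within each particle. Nop58, a core scaffold of box C/D particles, had the largest early difference of all members. It measured 10.38, 9.57 and 9.03 at 0.25 d, against 8.53, 7.63 and 8.15 at 0 d, and the difference of 1.56 ± 0.25 was a 2.95-fold change (adjusted p = 2.06e-05). All early arrays lay above 0 d, although both groups were spread over almost a whole log2 unit or more. Nop58 then measured 8.67, 8.66 and 8.79 at 1 d, where it did not pass, and 9.32, 9.20 and 9.07 at 2 d, where it did (1.10, adjusted p = 0.00221). The steps between these times were not significant on their own.

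Nop56, the partner scaffold of Nop58, peaked at 2 d. It measured 8.16, 8.24 and 7.77 at 0.25 d and 8.62, 8.65 and 8.36 at 2 d, against 8.08, 7.47 and 7.55 at 0 d. At 0.25 d the groups overlapped and the gene did not pass, whereas at 2 d they did not overlap (0.85 ± 0.17, adjusted p = 0.000703). Fbl, the methyltransferase of the same particle, differed by 0.23 at 1.5 d, which did not pass (adjusted p = 0.0794). The other Fbl probe set passed there (0.40, adjusted p = 0.0167) and at no other time. Rrp9, the protein specific to the U3 particle, was called at no time and did not pass the F-test.

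The 4 box H/ACA proteins form a single particle with fixed parts, and at 0.25 d 1 of their mRNAs was called higher and 2 lower. Gar1 was higher early and late. It measured 8.25, 7.88 and 7.37 at 0.25 d and 7.77, 7.92 and 7.75 at 2 d, against 7.30, 6.96 and 6.91 at 0 d, with differences of 0.78 ± 0.16 and 0.76 ± 0.16 (adjusted p = 0.000262 and 0.000872). Both sets of arrays lay above 0 d, and the gene did not pass at 1 d. Nhp2 measured 9.23, 9.20 and 8.99 at 0.25 d and 9.93, 9.68 and 9.84 at 2 d, against 9.25, 8.97 and 9.08 at 0 d. It overlapped with 0 d at 0.25, 0.5 and 1 d, lay just above it at 0.75 d without passing, and was clear of it from 1.5 to 3 d, with differences of 0.50, 0.72 and 0.50 (adjusted p = 0.00797, 0.000258 and 0.00809). The other Nhp2 probe set also passed at those 3 times and at no other.

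Dkc1, the pseudouridine synthase of the particle, was lower at first. It measured 7.86, 7.86 and 7.52 at 0.25 d, against 8.46, 8.56 and 8.42 at 0 d, and the groups did not overlap (-0.73 ± 0.13, adjusted p = 6.15e-05). It was still lower at 0.5 d (-0.37, adjusted p = 0.0258) and measured 8.80, 8.78 and 8.60 at 2 d, above all 0 d arrays without passing. Of its other 2 probe sets, 1 was also lower at 0.25 d (-0.37), and the other was higher at 1.5 and 2 d, by 0.63 and 0.87, in a fit over all probe sets. Nop10, the smallest protein of the particle, measured 10.94, 10.87 and 10.65 at 0.25 d, against 11.29, 11.26 and 11.22 at 0 d (-0.44 ± 0.08, adjusted p = 0.000128). Its arrays lay below all 0 d arrays at every later time except 2 d. It was called again at 0.5, 0.75, 3 and 4 d, with differences of -0.31, -0.23, -0.25 and -0.34, and differed by -0.19 to -0.23 at 1, 1.5, 7 and 14 d without passing. These Nop10 and Dkc1 calls make up the lower members from 0.25 to 0.75 d. Of the 2 lower calls at 0.5 d, 1 disappeared when 0.5 d replicate 3 or replicate 1 or 2 of 0 d was left out. The lower calls at 3 d numbered 0 without 3 d replicate 1 or either of replicates 1 and 2 of 0 d, 1 without 3 d replicate 2 or 3, and 4 without 0.5 d replicate 3. The single one at 4 d disappeared when replicate 1 or 2 of either 4 d or 0 d was left out, and the one at 0.75 d without any of the 0 d or 0.75 d arrays or 1 d replicate 3, 1.5 d replicate 1 or 7 d replicate 2.

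Of the 6 nucleolar chaperones and regulators 3 were higher at 0.25 d, 6 at 0.5 d, 1 at 0.75 and at 1 d, and 3 at 1.5 and at 2 d. Ddx21, an RNA helicase that works both at polymerase I and in processing, measured 8.14, 7.96 and 7.61 at 0.25 d, against 7.22, 6.57 and 7.02 at 0 d (0.97 ± 0.17, adjusted p = 5.67e-05). At that time it lay above all 0 d arrays, and it was called at all 6 times through 2 d. The other Ddx21 probe set was called at the same 6 times and also at 3 d (0.40, adjusted p = 0.0279). Lyar, a nucleolar zinc finger protein, peaked instead at 2 d, at 8.17, 8.08 and 7.98, against 7.70, 7.24 and 7.42 at 0 d (0.62 ± 0.11, adjusted p = 0.000234). The groups at 2 d and 0 d did not overlap. Gnl3, known as nucleostemin, was higher at 0.25 and 0.5 d, by 0.79 and 0.69. Nolc1, a snoRNP chaperone, was higher at those times and again at 1.5 and 2 d. Of its other probe sets, 1 passed at 0.25 and 0.5 d (0.66 and 0.67) but not at 1.5 or 2 d (0.58 and 0.56). The remaining Nolc1 probe set passed at no time. Ncl and Npm1, abundant nucleolar chaperones, were 0.37 and 0.26 higher at 0.5 d, and their chosen probe sets passed at no other time. Of the other 3 Ncl probe sets, 1 was higher at 0.25 and 0.5 d (0.48 at both), 1 was higher at 0.5 d (0.42), and 1 differed by -0.03 at 0.5 d and was lower at 1 d (-0.34, adjusted p = 0.0488).

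**Figure D4:**
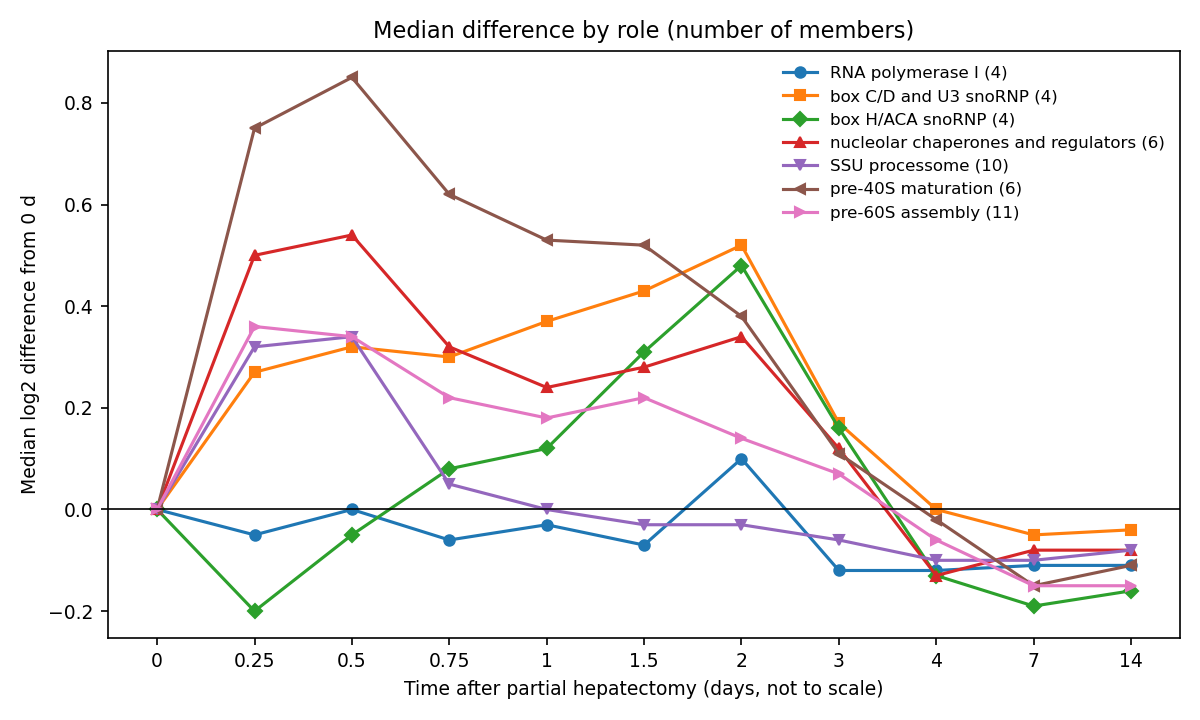
Median log2 difference from 0 d over the members of each of 7 roles (number of members in brackets in the legend), against days after surgery on an unscaled axis. Pre-40S factors reach 0.85 at 0.5 d, and the box C/D and box H/ACA groups reach 0.52 and 0.48 at 2 d. The 4 RNA polymerase I members stay between -0.12 and 0.10.

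Comparing each time with the one before it gives the rise and fall without the 0 d arrays. From 0.25 to 0.5 d 5 members rose and 0 fell, against 16% and 5.25% of all genes. These 5 were Dkc1, Npm1, Pno1, Bop1 and Nop16, with differences of 0.36, 0.25, 0.42, 0.29 and 0.48. Their share is below the background, and the balance turned with the scaling, to 1 higher and 2 lower after quantile normalization. Fitted on the arrays of these times alone 0 were higher, and within 1 registration run 1 was. The count was 3 without 0.25 d replicate 1 or 0.5 d replicate 3 and 2 without 0.25 d replicate 3. No member passed at 0.75 against 0.5 d (1.23% and 1.06% of all genes). At an unadjusted p under 0.05 there was 1 higher and there were 10 lower, with no count of all genes at that threshold beside them. With 0.25 d replicate 1 left out, or replicate 1 or 2 of 0.5 d, there were 2 lower calls, and without 0.25 d replicate 3 or 14 d replicate 1 there was 1. The steps to 1 d (0.594% and 0.579%), to 1.5 d (1.14% and 0.968%) and to 2 d (1.49% and 0.11%) also called 0 members. At the unadjusted threshold these steps gave 0 higher and 0 lower, 3 higher and 1 lower, and 2 higher and 0 lower.

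After 2 d few members passed in single steps. Lyar alone fell from 2 to 3 d (-0.56 ± 0.11, adjusted p = 0.0296, background 0.205% higher and 0.213% lower). At an unadjusted p under 0.05, where all genes were not counted, 9 members were lower. Nhp2 alone fell from 3 to 4 d (-0.50 ± 0.13, adjusted p = 0.022, background 3.03% and 3.23%). The Lyar call did not hold without 2 d replicate 1 or any of the 3 d arrays, nor the Nhp2 call without replicate 2 or 3 of 4 d or replicate 1 or 2 of 3 d. Neither 7 against 4 d nor 14 against 7 d called any member, or any gene of the array (0% in both directions). Unadjusted, 1 member was higher and 1 lower at 7 against 4 d, and 0 were at 14 against 7 d.

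The early and the late part of the response were then set against each other directly, in comparisons chosen after the time courses had been seen. The time with the most members higher was 0.5 d, so falls from it were likely beforehand. At 2 d 4 members (8.89%) were higher than at 0.5 d and 13 (28.9%) were lower, against 15.6% and 14% of all genes. The share higher is thus below the background. Those higher were Dkc1 (0.62 ± 0.13, adjusted p = 0.000685), Nhp2 (0.50 ± 0.13, adjusted p = 0.00503), Ubtf (0.27) and Nop10 (0.26). Of these 4, 3 encode parts of the box H/ACA particle, which is too few calls to read as a trait of it. For Dkc1 and Nop10 the rise is a return towards the 0 d level or just above it, since both were low at 0.5 d. Those lower included 5 members of the SSU processome besides Imp3, namely Nop14, Wdr43, Heatr1, Imp4 and Ddx10, and of the pre-40S group Tsr1, Pno1 and Ltv1. The others were Gnl3, Bop1, Pes1 and Nop2. Ltv1 differed by -0.79 ± 0.13 (adjusted p = 5.29e-05) and Pno1 by -0.66 ± 0.10 (adjusted p = 1.52e-05), and in both the arrays of the 2 times did not overlap. The number lower was 6 without 0.5 d replicate 3 and 8 without 2 d replicate 3, and the number higher was 2 without 2 d replicate 2. With only the arrays of these times in the fit 1 member was higher and 3 were lower. The times lie in different registration runs, so run and time cannot be told apart here.

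**Figure D5:**
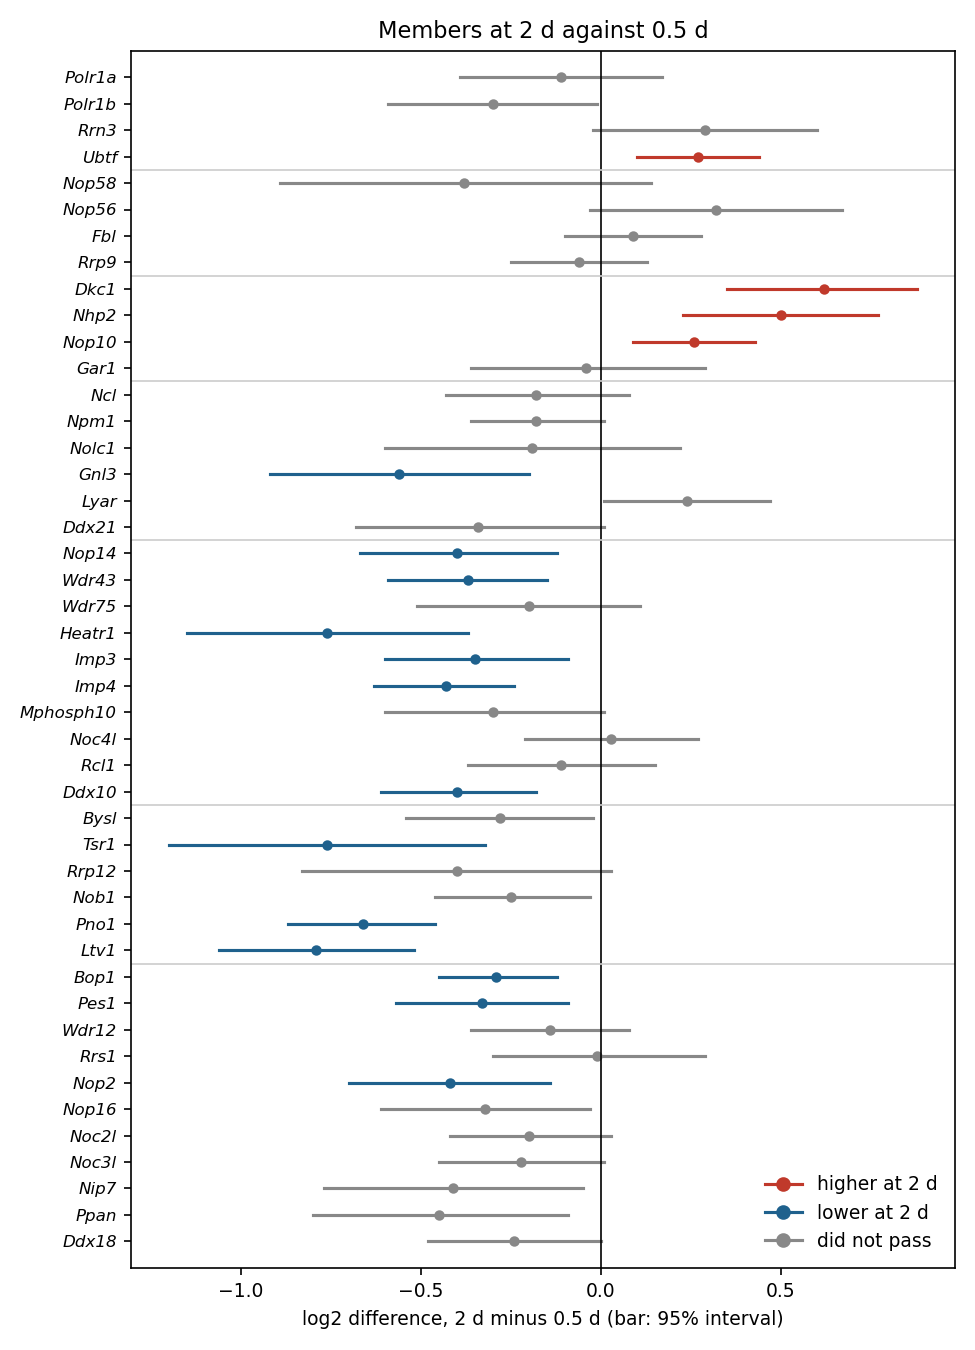
Log2 difference between 2 d and 0.5 d (2 d minus 0.5 d) for each of the 45 members, with its 95% interval as a bar. Red marks members higher at 2 d, blue members lower at 2 d, and grey those that did not pass. The 4 red points are Ubtf, Dkc1, Nhp2 and Nop10, and the 13 blue ones lie mostly in the SSU processome and pre-40S rows.

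By 4 d 32 of the 45 members were lower than at 0.5 d and 0 higher, against 16.6% and 20.5% of all genes, and their median difference was -0.48. These times too lie in different registration runs, so run and time cannot be told apart. This comparison was also chosen after the values had been seen, with the time of most higher calls as reference. Many falls were thus likely beforehand, which the background of all genes does not take into account. The difference was -1.55 for Tsr1, -1.47 for Nop58, -1.06 for Ltv1 and -0.94 for Pno1. Between 2 and 4 d, 2 times of the same registration run, 13 members fell and 0 rose (background 6.84% and 7.14%). These included the scaffolds Nop58 (-1.09) and Nop56 (-0.85), all 4 box H/ACA genes (Dkc1 -0.50, Nhp2 -0.72, Nop10 -0.29 and Gar1 -0.66), Lyar (-0.78 ± 0.11, adjusted p = 4.3e-05), Ddx21, Npm1, Ubtf, Tsr1, Rrp12 and Wdr12. The count was 6 without 2 d replicate 1, 7 without 2 d replicate 2 and 8 without 4 d replicate 2. Heatr1, Imp4, Pno1 and Ltv1, which had fallen by 2 d, did not pass between 2 and 4 d.

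Other genes of the pathway, in 5 lists of 117 genes of which 113 were tested, were called higher mainly at the early times. These lists, like the members, were chosen with earlier results of these data known. Their shares are therefore a description and no independent support. At 0.5 d 52 of the 113 (46%, against 15.8% of all genes) were higher and 1 lower, and at 0.25 d 34 (30.1%, against 17.2%) were higher and 7 lower. At 2 d 20 (17.7%, against 11%) were higher and 4 lower. At 3 d 8 were higher (7.08%, below the 10.2% of all genes) and 8 lower, and at 4 d 0 were higher and 1 lower. Of 11 further RNA polymerase I genes 6 were higher at 0.5 d. Polr1e, a subunit of the enzyme, was 1.07 ± 0.20 higher (adjusted p = 0.000156) and Taf1d, part of its promoter selectivity factor, 0.76 ± 0.19 (adjusted p = 0.00274). Among further small subunit factors 16 of 37 were higher at 0.5 d, led by Ngdn with 1.15 and the helicase Ddx49 with 0.71. Among further large subunit factors 18 of 44 were higher. Eif6, which keeps the 60S subunit from joining the 40S too soon, had the largest value of these lists, 1.49 ± 0.14 (adjusted p = 1.06e-08), followed in its list by the methyltransferase Ftsj3 with 1.14. Of the snoRNP assembly factors 3 of 8 were higher, with Ruvbl2 at 0.44 and Shq1, a chaperone of Dkc1, at 0.37. The exosome, the nuclease complex that trims rRNA precursors, had 9 of 13 genes higher and 1 lower at 0.5 d and 8 of 13 higher at 2 d, with Dis3 at 1.11 and Mphosph6 at 0.85 at 0.5 d.

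Different probe sets of a member could be compared for part of the list. Another probe set was bright enough for 28 members. Of 62 calls of a member at a time with another probe set, 37 were also made in the same direction by another one and 0 in the opposite direction. In 15 cases another probe set passed where the chosen one did not. For Nop16, which was never called against 0 d, the other probe set was higher at 0.5, 0.75, 1 and 1.5 d, by 0.33 to 0.35. For Noc4l the other 3 were all higher at 2 d, by 0.30, 0.51 and 0.44, where the chosen set gave 0.16. The other Wdr12 probe set was also higher at 2 d (0.46, adjusted p = 0.00616), where the chosen one gave 0.12. The other Fbl one was higher at 1.5 d.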

How the data were processed

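Per the submitters' processing notes the authors summarised the arrays with RMA, and its version is not given in the sources used here. The deposited values are log2 signals, and 16 of 33 arrays share their maximum with another array. Array medians lay between 5.32 and 5.38. RMA makes the arrays' distributions alike, so a change shared by most genes would not be seen, and differences of dim probe sets are compressed. The arrays' number limits the precision.

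Of 45101 probe sets 34945 had a single symbol, 932 several and 9160 none, and 64 were controls. Each gene was represented by its probe set of highest average signal, and 13642 of 18193 genes reached a log2 value of 5 on at least 3 arrays. The fit used limma 3.58.1 (R 4.3.3) with a term for each time over 33 arrays, 22 residual and 3.69 prior degrees of freedom. Each later time was compared with 0 d, with the time before it, and 1.5 d with the mean of 1 and 2 d, and 3 further comparisons were added after the values were seen. Two-sided p-values were adjusted by Benjamini-Hochberg over the genes of a comparison and called below 0.05, and errors of differences are standard errors. The 10 comparisons with 0 d share its arrays, as adjoining steps share theirs. Counts at an unadjusted p under 0.05 were taken for members only, so they have no background of all genes.

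The members and the lists of pathway genes and cell markers were chosen with earlier results of these data known. Named with every array value were, per role, the 2 members with the highest F, those lower than 0 d at 2 or more times and any not measured; of each other list, the 2 genes with the largest difference at 0.5 d. Polr1f, Polr1g, Polr1h and Snu13 were not matched. The steps were tested on simulated data. Alternatives were no filter, a floor of 7, averaging the probe sets of a gene, quantile normalization, an intensity trend with robust prior, a replicate block, only the arrays compared, only 1 registration run, and each array left out in turn. Motifs were searched on both strands with Python 3.11.15 and plots drawn with matplotlib 3.10.9.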

Additional observations from a re-analysis of the deposited data

How the results depend on the processing

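Small changes of dim probe sets cannot be seen, and with 3 arrays per time single arrays move the later counts. For each named member only its largest difference from 0 d was rechecked, and none of these changed sign. Being the largest, they were the least likely to do so, and the members' other differences were not rechecked. The balance of higher and lower members turned at 0.5 against 0.25 d after quantile normalization. It also turned at 3 d with a floor of 7, with only the arrays of the times compared and in some of the fits with an array left out. The trend with a robust prior moved 0 of 47 counts. With only the arrays of the times compared, members higher numbered 14 at 0.25 d, 17 at 0.5 d, 5 at 2 d and 2 at 3 d, and lower ones 0 at 0.5, 0.75, 2 and 4 d and 1 at 3 d. That fit has fewer arrays to estimate the spread from. It gave 0 higher at 0.5 against 0.25 d, 1 higher at 1.5 against 1 d, 2 lower at 4 against 3 d, 1 higher and 3 lower at 2 against 0.5 d, and 7 lower at 4 against 2 d, and Ddx18 at 0.25 d had adjusted p = 0.0539. The cause of the following shifts was not tested. Without a filter 0 were lower at 0.75 d and 3 higher at 0.5 against 0.25 d. With a floor of 7, which 41 members passed, 1 was lower at 1 d, 2 were higher and 1 lower at 3 d, and 1 was lower at 0.5 against 0.25 d and 1 at 0.75 against 0.5 d. With the probe sets of a gene averaged, 1 was lower at 0.5, 1 and 1.5 d, 0 at 0.75 d, and 3 were higher and 1 lower at 0.5 against 0.25 d. After quantile normalization 0 were lower at 0.75 d, 2 higher at 3 d, and 1 higher and 2 lower at 0.5 against 0.25 d. Within 1 registration run 1 was lower at 1 d, 2 were higher and 4 lower at 3 d, and 1 was higher at 0.5 against 0.25 d. The replicate block moved 1 count, to 1 lower at 1 d. Deviations of arrays with the same replicate number at different times correlated with a median of 0.018, against -0.01 for different numbers. The value was over 0.1 in 33 of 165 pairs with the same number and in 52 of 330 with different numbers. These medians show no general pairing by replicate number, but they cannot exclude a pairing of some arrays.

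Leaving out each array in turn, members higher than at 0 d ranged from 16 to 24 at 0.25 d, 19 to 31 at 0.5 d, 5 to 18 at 0.75 d, 5 to 14 at 1 d, 3 to 14 at 1.5 d, 5 to 10 at 2 d and 1 to 3 at 3 d. Members lower ranged from 2 to 3 at 0.25 d, 1 to 2 at 0.5 d, 0 to 4 at 3 d and 0 to 1 at 0.75, 1, 1.5, 2 and 4 d. Between consecutive times they ranged from 2 to 7 higher and 0 to 1 lower at 0.5 against 0.25 d, 0 to 2 lower at 0.75 against 0.5 d, and 0 to 1 lower at 3 against 2 d and at 4 against 3 d. At 2 against 0.5 d 2 to 4 were higher and 6 to 17 lower, and at 4 against 2 d 6 to 14 were lower.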
